A study of Mus musculus with 12 samples.

Results

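The genes of iron uptake, storage, export and iron sensing were followed across resting and stimulated CD8+ T cells of wild-type mice and of mice with a conditional knockout of Senp1. They are 10 genes: Tfrc, Steap3 and Slc11a2 for uptake, Fth1 and Ftl1 for storage, Ncoa4 for release from storage, Slc40a1 for export, and Aco1, Ireb2 and Fbxl5 for sensing. They were chosen by name, with earlier results of these data known, and each matched 1 of the 56691 gene IDs in the count table. All 10 passed the filter on low counts that kept 15935 genes. The study sequenced polyadenylated RNA from naive CD8+ T cells of mouse spleen in 12 libraries, in 4 groups of 3. Senp1 encodes an enzyme that strips SUMO, a small protein tag, from other proteins, and CKO marks the Senp1 conditional knockout as WT marks the wild type. Cells of either genotype were taken at 0 h without stimulation or after 48 h with antibodies to CD3 (5 µg/ml) and CD28 (1 µg/ml), which stand in for antigen and co-stimulation. The labels give no Cre driver, mouse age or link between libraries and animals. The p-values therefore reflect the spread between libraries, which may be technical.

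Iron reaches most cells bound to transferrin, which the transferrin receptor carries into endosomes, where the iron is reduced and pumped into the cytosol. Iron not in use is held in ferritin, a shell of heavy and light chains, and ferroportin lets it out of the cell. The iron regulatory proteins bind RNA hairpins called iron-responsive elements when iron is short: hairpins in a 5′ UTR then block translation, and hairpins in the 3′ UTR of the receptor mRNA protect it from decay. T cells that start to divide are known for a high demand for iron and for putting the transferrin receptor, CD71, on their surface.

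The hairpins are shown because the regulatory proteins act on mRNA through them. All coding transcripts of each gene in the basic set of GENCODE M21 (GRCm38) were searched on their own strand. A site was CAGTGN with 5 bases on each side able to pair and a C before them, and both UTRs were read. Of the 10 genes, 4 held such a site and 6 did not. Slc11a2, among the 6, is known for a form with an iron-responsive element in its 3′ UTR. Neither of its 2 basic coding transcripts held a site under this rule, and whether that form is among them was not checked. Tfrc had 4 sites, all in the 3′ UTR in the last of its 19 exons on chromosome 16, and Fth1, Ftl1 and Slc40a1 had 1 each, in the 5′ UTR in exon 1. Among all coding genes, where only 1 representative transcript of each was read, 0.102% of 5′ UTRs and 0.532% of 3′ UTRs held 1 or more. These shares are given for scale. The 10 genes were picked for their part in iron handling and were not tested against them. Capitals mark the loop, CAGTGN, and each site is printed 5′ to 3′ as DNA of the transcribed strand.
Tfrc site 1, chr16:32631220-32631247, plus strand: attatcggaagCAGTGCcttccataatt
Tfrc site 2, chr16:32631599-32631626, plus strand: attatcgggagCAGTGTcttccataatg
Tfrc site 3, chr16:32631664-32631691, plus strand: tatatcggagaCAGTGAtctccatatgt
Tfrc site 4, chr16:32631711-32631738, plus strand: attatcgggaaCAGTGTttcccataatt
Fth1, chr19:9982733-9982760, plus strand: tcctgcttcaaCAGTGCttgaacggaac
Ftl1, chr7:45459779-45459806, minus strand: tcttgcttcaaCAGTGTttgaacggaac
Slc40a1, chr1:45925465-45925492, minus strand: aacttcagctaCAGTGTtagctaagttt

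Library totals ran from 15900529 to 22427151 counts. Senp1 itself was lower in CKO with no overlap at either time: it ran from 77.9 to 85.4 CPM (reads per 1000000 counts of a library, scaled by TMM factors) in WT and from 54.6 to 59.8 CPM in CKO at 0 h, and from 150 to 171 CPM against 66.3 to 74.5 CPM at 48 h. All 6 T-cell markers, Cd8a and Cd8b1 among them, were present in every group. Their sum at 0 h ran from 3158 to 3357 CPM in WT and from 3061 to 3256 CPM in CKO. At 48 h it was lower in CKO without overlap, at 1293 to 1355 CPM against 1536 to 1587 CPM in WT. Cd8a was called lower in CKO at 0 h (log2 difference -0.19, adjusted p = 0.042, edgeR) and at 48 h (-0.36, adjusted p = 4.8e-04, edgeR). Cd8b1 was called lower at 48 h (-0.26, adjusted p = 0.039, edgeR), and the others were called at neither time. Markers of other spleen cells were also present. The summed level of 7 B-cell markers at 0 h was 768 to 1435 CPM in WT and 700 to 762 CPM in CKO, with the highest value in WT replicate 1. At 48 h it was 293 to 338 CPM in WT and 266 to 281 CPM in CKO. Erythroid sums at 0 h were 20.8 to 37.2 CPM in WT and 12 to 19.3 CPM in CKO. Both sums were thus lower in CKO without overlap at 0 h, and the B-cell sum at 48 h too. Of the single markers at 0 h, 0 of 7 B-cell genes and 1 of 7 erythroid genes tested were called lower in CKO. Groups did not overlap at 0 h for 24.6% of all genes. The sum of the CD4 T-cell list rose over time, from 351 to 458 CPM at 0 h to 501 to 993 CPM at 48 h. Of its 4 genes only Ctla4 was called higher, with a log2 change of 1.23 in WT and 0.66 in CKO. Foxp3 was called lower in both genotypes and Cd40lg lower in CKO, and Cd4 itself was not called in either genotype. The sum of 4 NK-cell markers was 79.5 to 109 CPM in WT and 76.8 to 145 CPM in CKO at 0 h. At 48 h it was 25.9 to 36.4 CPM in WT and 24.6 to 35.7 CPM in CKO, and all 4 were called lower over time in both genotypes. Neutrophil marker sums were at most 8.54 CPM at 0 h and 0.0506 CPM at 48 h. Both WT libraries numbered 1 stood apart in earlier results of these data; without them the number of the 10 genes that passed the test was the same in each of the 5 comparisons. The part of other cells in the changes below was not tested.

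Over 48 h of stimulation the genes moved in both directions, also within uptake and within sensing. In both genotypes the transferrin receptor and both RNA-binding sensors rose, while both ferritin chains, the iron pump, ferroportin, the ferritin receptor and the sensor of the degradation complex fell. CPM is a share of a library's counts, so each rise or fall is relative, and RNA per cell was not measured. All 6 T-cell markers were also called lower at 48 h in both genotypes. Their log2 changes ran from -0.77 (Cd3d) to -1.44 (Cd3g) in WT and from -0.95 (Cd3d) to -1.73 (Cd3g) in CKO. In WT 9 of the 10 genes were called by edgeR's quasi-likelihood test at an adjusted p under 0.05, 3 higher and 6 lower; of all genes tested 77.9% were called, 38.7% higher and 39.1% lower. In CKO all 10 were called, 3 higher and 7 lower; of all genes 77.7% were called, 38.5% higher and 39.2% lower. With a log2 change of at least 1 as well, 5 genes remained in WT and 4 in CKO, against 47.3% of all genes in either genotype. Libraries of the 2 times did not overlap for 8 of the 10 genes in WT and for 10 in CKO, against 79.4% and 81% of all genes. The median log2 change of the 10 genes was -0.27 in WT and -0.61 in CKO, beside -0.03 and -0.04 over all genes. The number called was thus near the share called over all genes, and the sizes and directions of single genes are described next.

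**Figure D1:**
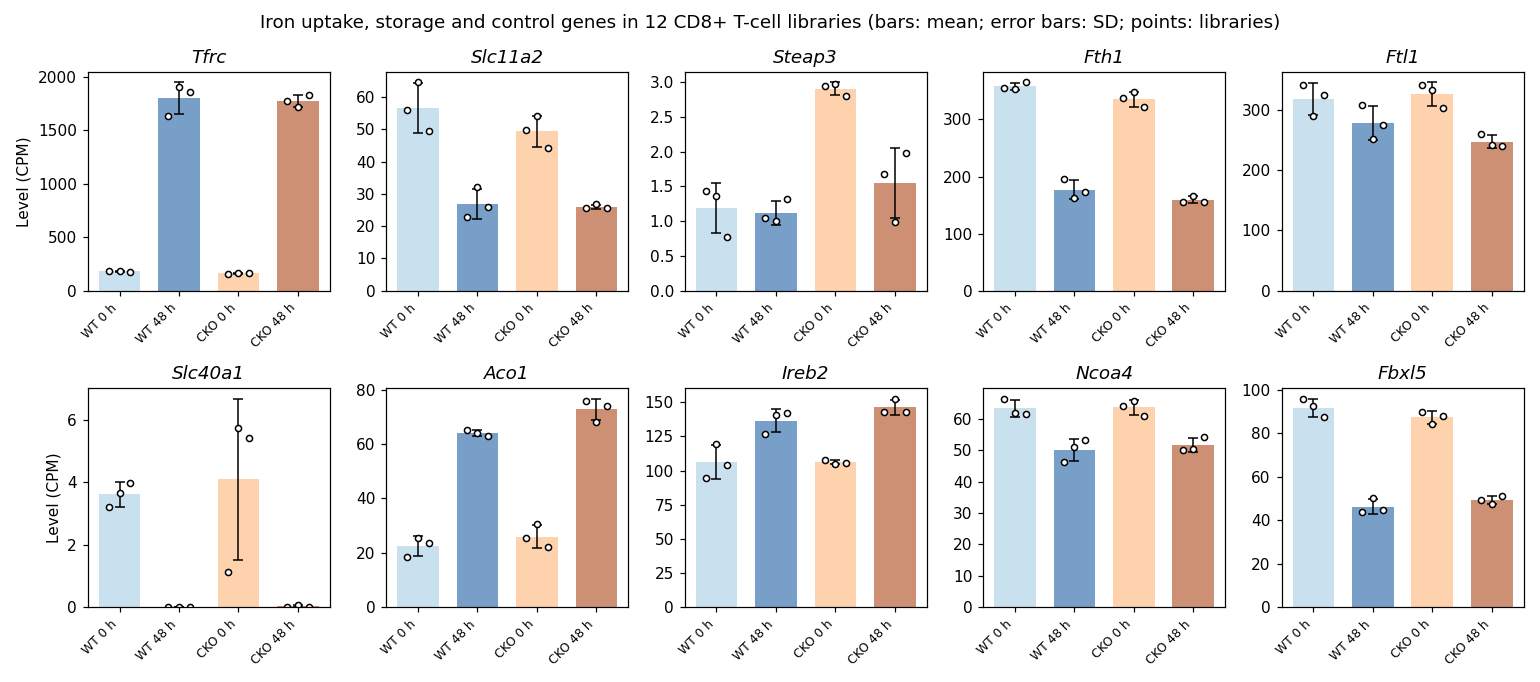
Level of each of the 10 genes in CPM (linear axes that start at 0) in the 4 groups. Bars are means, error bars are the SD over 3 libraries and points are libraries; Tfrc stands between 159 and 184 CPM at 0 h and between 1633 and 1909 CPM at 48 h, while Fth1, Slc11a2, Fbxl5 and Slc40a1 stand lower at 48 h in every library.

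Tfrc encodes the transferrin receptor (chr16:32608920-32632794). It measured 184, 182 and 173 CPM in the WT libraries at 0 h and 1633, 1909 and 1861 CPM at 48 h. In CKO it measured 159, 164 and 163 CPM at 0 h and 1771, 1713 and 1827 CPM at 48 h. The 0 h and 48 h libraries were far apart in both genotypes, and the lowest stimulated library was WT replicate 1. The log2 change was 3.32 ± 0.066 (SE) in WT and 3.45 ± 0.067 in CKO, with edgeR adjusted p of 6.7e-19 and 6.2e-19. Of all genes tested, 95.9% in WT and 96.1% in CKO had a lower log2 change.

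Steap3 encodes the reductase that turns ferric into ferrous iron in the endosome (chr1:120190757-120272705). It was the faintest gene of the uptake path and rested on 13 to 49 counts a library. It measured 1.43, 1.37 and 0.773 CPM in WT at 0 h and 1.04, 1.00 and 1.32 CPM at 48 h, and these groups overlapped. In CKO it measured 2.95, 2.97 and 2.80 CPM at 0 h and 1.68, 0.988 and 1.97 CPM at 48 h, so every unstimulated CKO library lay above all others. The log2 change was -0.09 ± 0.34 in WT (adjusted p = 0.815, edgeR) and -0.90 ± 0.31 in CKO (adjusted p = 0.0137, edgeR), and the latter was 0.0823 without CKO 48 h replicate 2, its lowest library. The difference between these responses, -0.81 ± 0.47, did not pass the test (adjusted p = 0.504, edgeR).

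Slc11a2 encodes DMT1, the pump that moves ferrous iron out of the endosome (chr15:100387898-100425072). It measured 55.9, 64.6 and 49.4 CPM in WT at 0 h and 22.9, 32.1 and 26.0 CPM at 48 h. In CKO it measured 49.8, 54.1 and 44.2 CPM at 0 h and 25.7, 26.8 and 25.6 CPM at 48 h. Every stimulated library lay below every unstimulated library of its genotype. The fall was -1.07 ± 0.12 on the log2 scale in WT (edgeR adjusted p = 1.5e-07) and -0.92 ± 0.12 in CKO (adjusted p = 1.2e-06). The receptor and the pump of the same path thus went in opposite directions at the RNA level.

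Fth1 encodes the ferritin heavy chain, which oxidises iron for storage (chr19:9980598-9985098). It measured 356, 353 and 365 CPM in WT at 0 h and 196, 163 and 172 CPM at 48 h. In CKO it measured 337, 347 and 322 CPM at 0 h and 155, 166 and 156 CPM at 48 h. The groups of the 2 times did not overlap in either genotype, and the log2 change was -1.02 ± 0.066 in WT (edgeR adjusted p = 2.5e-11) and -1.08 ± 0.066 in CKO (adjusted p = 1.1e-11). Ftl1, the light chain, which helps to build the iron core (chr7:45457944-45459884), changed less. It went from 319 ± 26.9 to 278 ± 28.7 CPM in WT (SD, n = 3), where the groups overlapped, and from 326 ± 19.7 to 248 ± 10.3 CPM in CKO, where they did not. The log2 change of Ftl1 was -0.19 ± 0.076 in WT (adjusted p = 0.026, edgeR) and -0.40 ± 0.077 in CKO (adjusted p = 1.0e-04, edgeR). The call in WT was lost without any one of 4 libraries: the adjusted p was 0.147 without 0 h replicate 1, 0.0796 without 0 h replicate 3, 0.193 without 48 h replicate 2 and 0.0824 without 48 h replicate 3.

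Ferritin genes have processed copies elsewhere in the genome, and reads could be split among them. Of 14 copies and relatives in the table, 4 held counts: Ftl1-ps1 with 434 over all 12 libraries, Fth-ps2 with 84, Ftl2-ps with 6 and Fth-ps3 with 1. The copies came to at most 1.06% of the Ftl1 count and 0.456% of the Fth1 count in any library, and adding them to their parent genes changed no call among the 10 genes.

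The ratio of Tfrc to Fth1 counts puts uptake against storage within a library, where scaling cancels. It was 0.503 ± 0.0246 in WT at 0 h and 10.3 ± 1.75 at 48 h (SD, n = 3), and 0.484 ± 0.0185 and 11.1 ± 0.746 in CKO. The values did not overlap between the times, and the exact two-sided permutation test over libraries gave p = 0.1, the smallest that 3 against 3 allow, in either genotype. Between the genotypes the ratio overlapped at both times (exact permutation p = 0.2 at 0 h and 0.6 at 48 h). The ratio of heavy to light chain counts fell too, from 1.13 ± 0.0903 to 0.636 ± 0.00934 in WT and from 1.03 ± 0.0382 to 0.644 ± 0.0440 in CKO, with no overlap between the times and again p = 0.1 by the exact permutation test.

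**Figure D2:**
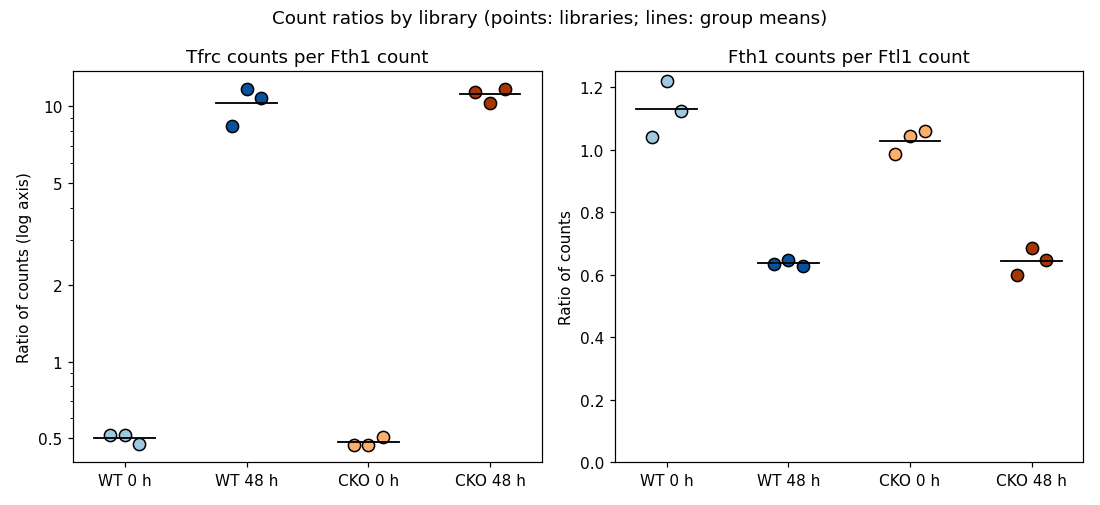
Left, Tfrc counts per Fth1 count in each library on a log axis; right, Fth1 counts per Ftl1 count on a linear axis. Points are libraries and lines are group means; the left ratio stands near 0.5 at 0 h and from 8.33 to 11.7 at 48 h.

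Slc40a1 encodes ferroportin, the exporter of iron (chr1:45908068-45926523). It held 56, 72 and 67 counts in the WT libraries at 0 h and 0 in each at 48 h. In CKO it held 18, 95 and 89 counts at 0 h and 0, 1 and 0 at 48 h. Against a floor of 3 counts over the group the WT level at 48 h was at least 72.5-fold lower. In CKO it was 229-fold lower, with a 95% counting interval of 40.7 to 9100 (exact; counting error only), and both calls passed (adjusted p = 3.6e-06 and 4.5e-06, edgeR).

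Ferroportin is also a gene of the red pulp macrophage, the spleen cell that recycles iron from red blood cells. In bulk RNA, fewer cells of a type and less RNA per cell cannot be told apart. The summed level of 12 macrophage and myeloid markers fell as well, from between 42.5 and 66.0 CPM to between 6.08 and 7.33 CPM in WT and from between 49.7 and 69.3 CPM to between 4.0 and 10.4 CPM in CKO. Of the 11 tested, 9 were lower in WT and 11 in CKO. At 48 h Spic was at 0 in all 3 WT libraries and C1qa in all 3 CKO libraries. Of 7 erythroid markers tested 6 fell in either genotype, and their sum at 48 h was 0.823 to 1.89 CPM. In the CKO libraries at 0 h, Slc40a1 was lowest in replicate 1, and so were 7 of the 12 macrophage and myeloid markers. Among these 7 was Vcam1, with 30, 139 and 134 counts, while the other 5, Spic, Csf1r, Cd163, Lyz2 and Cd68, were not lowest there. The summed level of the list was highest in replicate 1, at 69.3 CPM against 59.5 and 49.7 CPM, and Lyz2 alone had 717, 232 and 284 counts; Vcam1 and Lyz2 were chosen after their values were seen. The part of these cells in the Slc40a1 values was not tested.

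Aco1 and Ireb2 encode the iron regulatory proteins IRP1, which doubles as an aconitase when it carries an iron-sulfur cluster, and IRP2. Aco1 (chr4:40143081-40198338) measured 18.3, 25.3 and 23.5 CPM in WT at 0 h and 65.1, 64.0 and 62.7 CPM at 48 h. In CKO it measured 25.2, 30.5 and 22 CPM at 0 h and 75.8, 68.2 and 74.1 CPM at 48 h. The log2 change was 1.51 ± 0.11 in WT and 1.49 ± 0.11 in CKO; the groups of the 2 times lay well apart (adjusted p = 5.5e-10 and 6.5e-10, edgeR). Ireb2 (chr9:54863789-54912530) rose less, from 106 ± 12.7 to 137 ± 8.58 CPM in WT and from 106 ± 1.38 to 146 ± 5.64 CPM in CKO, a log2 change of 0.36 ± 0.075 and 0.46 ± 0.075 (adjusted p = 0.00020 and 1.4e-05, edgeR). Its groups did not overlap between the times either.

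Fbxl5 encodes the iron-sensing subunit of the ubiquitin ligase that marks IRP2 for breakdown (chr5:43744615-43821638). It measured 95.7, 92.4 and 87.3 CPM in WT at 0 h and 43.6, 50.2 and 44.7 CPM at 48 h. In CKO it measured 90.0, 84.2 and 87.8 CPM at 0 h and 49.2, 47.4 and 51.0 CPM at 48 h. The log2 change was -0.99 ± 0.070 in WT (edgeR adjusted p = 8.9e-11) and -0.83 ± 0.070 in CKO (adjusted p = 1.6e-09), so the RNA of IRP2 and of the subunit that marks it moved in opposite directions. Ncoa4, the receptor that brings ferritin to the lysosome to free its iron (chr14:32159865-32179855), fell by less, from 63.3 ± 2.74 to 50.0 ± 3.58 CPM in WT and from 63.6 ± 2.44 to 51.6 ± 2.19 CPM in CKO. Its log2 change was -0.34 ± 0.071 in WT (edgeR adjusted p = 0.00025) and -0.30 ± 0.071 in CKO (adjusted p = 7.9e-04), with no overlap between the times.

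**Figure D3:**
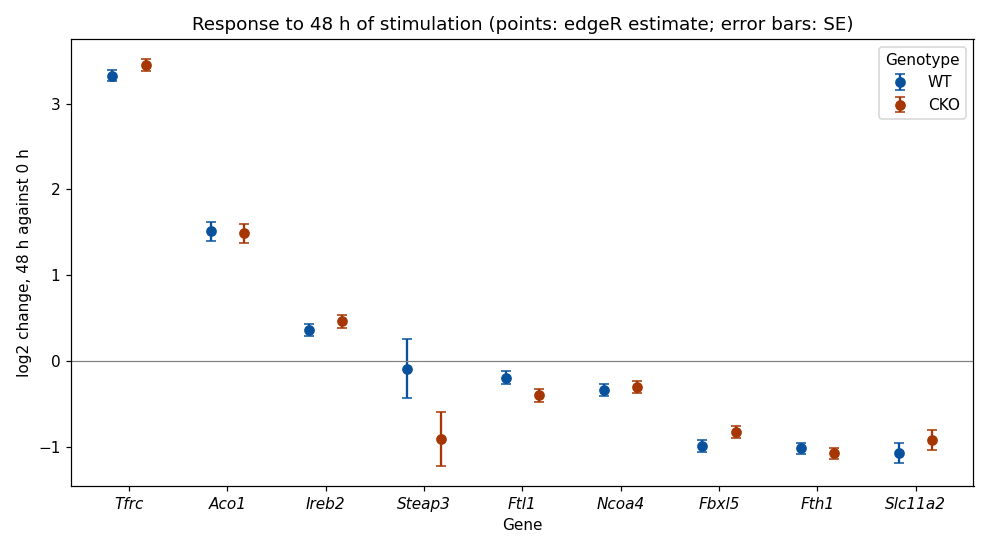
log2 change from 0 h to 48 h in WT and CKO for 9 genes, with the SE from the edgeR fit; Slc40a1 is left out because its counts were 0 or 1 at 48 h. Tfrc, Aco1 and Ireb2 lie above 0 in both genotypes and Slc11a2, Fth1, Fbxl5, Ncoa4 and Ftl1 below.

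The order of the genes by level needs a length, and the order of the ferritin chains depends on which. Over the union of all annotated exons, Ftl1 led in WT at 0 h with 238 ± 20.1 CPM per 1000 bases, before Fth1 with 103 ± 1.82 and Tfrc with 29.1 ± 0.951. Over the representative transcript, a length chosen after seeing the data because rare long forms make the Fth1 union 3469 bases against 929 for the transcript, Fth1 led with 385 ± 6.80, before Ftl1 with 329 ± 27.8 and Tfrc with 36.8 ± 1.2. In CKO at 0 h the order by union was the same as in WT, while by transcript Fth1 (361 ± 13.8) and Ftl1 (337 ± 20.3) overlapped. At 48 h Tfrc came first under both lengths and in both genotypes, with no overlap with Ftl1, the gene after it: its level in WT was 291 ± 23.8 CPM per 1000 bases of union and 368 ± 30.1 of transcript. Steap3 and Slc40a1 held the last 2 places in all 4 groups under both lengths, and they overlapped with each other in CKO at 0 h. In the middle of the order, the transcript levels of Slc11a2 and Ireb2 overlapped in WT at 0 h, those of Slc11a2 and Ncoa4 in CKO at 0 h, and those of Aco1 and Fbxl5 at 48 h in both genotypes.

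Between the genotypes the 10 genes differed little. At 0 h 1 of 10 was called, Steap3, which was higher in CKO, where 7.48% of all genes were called. Its log2 difference was 1.28 ± 0.32 (95% interval 0.60 to 1.95, edgeR adjusted p = 0.0191), from 1.19 ± 0.363 CPM in WT to 2.91 ± 0.0901 CPM in CKO. This call rests on few counts and was lost without any one of 3 libraries: the adjusted p was 0.0917 without WT replicate 3, 0.0578 without CKO replicate 1 and 0.0537 without CKO replicate 3, and over all alternatives it ran from 0.00695 to 0.0917. At 0 h the groups did not overlap for 3 of the 10 genes, Steap3, Tfrc and Fth1, and the same held for 24.6% of all genes. Tfrc was -0.15 ± 0.062 in CKO against WT (95% interval -0.28 to -0.02), with an unadjusted p of 0.0241 and an edgeR adjusted p of 0.158.

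At 48 h none of the 10 genes was called by edgeR or by DESeq2, where edgeR called 4.54% of all genes. At an unadjusted p under 0.05 there were 2, Fth1 at -0.15 ± 0.066 and Ftl1 at -0.17 ± 0.076 in CKO against WT (adjusted p = 0.226 and 0.264, edgeR). For Tfrc the difference was -0.02 ± 0.060, and its 95% interval ran from -0.15 to 0.10. Groups did not overlap for 2 of the 10 genes, Aco1 and Ireb2, against 23.7% of all genes, and Aco1 stood at 0.19 ± 0.10 (adjusted p = 0.405, edgeR). Steap3 at 48 h was 0.46 ± 0.33 with an interval from -0.23 to 1.16.

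The response of CKO was compared with that of WT through the interaction term. None of the 10 genes was called by edgeR or DESeq2, none had an unadjusted p under 0.05, and edgeR called 1.38% of all genes. The difference between the responses was 0.13 ± 0.086 for Tfrc (95% interval -0.05 to 0.31), -0.06 ± 0.092 for Fth1 (-0.25 to 0.13) and -0.20 ± 0.11 for Ftl1 (-0.43 to 0.02). The intervals of Tfrc, Fth1, Ireb2, Ncoa4, Fbxl5, Aco1, Ftl1 and Slc11a2 all lay within 0.5 of 0 on the log2 scale, while that of Steap3 ran from -1.79 to 0.16. For Slc40a1 neither the 48 h difference nor the interaction could be sized, since its counts at 48 h were 0 or 1.

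**Figure D4:**
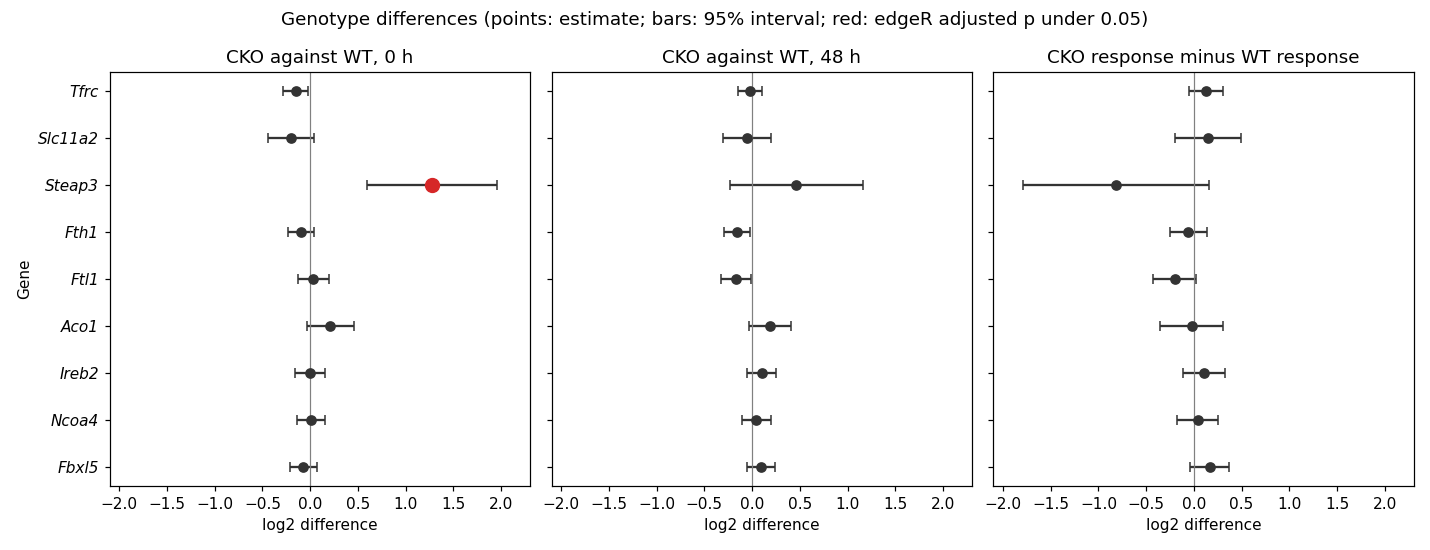
log2 difference of CKO against WT at 0 h and 48 h and the difference between the responses, for 9 genes. Points are edgeR estimates, bars 95% intervals, and the red point is the one difference called, Steap3 at 0 h (1.28).

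Around the 10 genes, 90 other genes of iron handling were listed by pathway, and 80 of them were tested. At 48 h 44 of them were higher in WT and 42 in CKO, and 28 and 26 were lower. Among all genes tested, 38.7% were higher and 39.1% lower in WT, and 38.5% and 39.2% in CKO. The median log2 change of the 80 genes was 0.46 in WT and 0.34 in CKO, beside -0.03 and -0.04 over all genes. The lists were written with earlier results of these data known, so they are a description of the pathway.

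In the list of the transferrin cycle and iron import, 6 of 13 rose and 6 fell in WT, where 38.7% of all genes rose and 39.1% fell. In CKO 6 rose and 7 fell, where 38.5% and 39.2% did. With a log2 change of at least 1 as well, 3 rose and 6 fell in WT, and 4 and 7 in CKO, against 47.3% of all genes called in either genotype. The median log2 change was -0.88 in WT and -1.21 in CKO, beside -0.03 and -0.04 over all genes. The 3 genes with the smallest p in WT all rose. Slc39a8, an importer of zinc, manganese and iron, rose from 3.55 ± 0.432 to 19.8 ± 1.92 CPM (log2 change 2.48 ± 0.15), and the iron chaperone of ferritin Pcbp1 from 155 ± 6.72 to 410 ± 14 CPM (1.40 ± 0.062). Snx3, which helps to recycle the transferrin receptor to the surface, rose from 64.0 ± 4.77 to 168 ± 11.5 CPM (1.40 ± 0.068). In CKO the 3 genes rose by 2.19, 1.34 and 1.31 on the log2 scale.

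The list for control of the regulatory proteins and of the receptor mRNA had 12 genes, among them also transcription factors and an autophagy receptor. In WT 6 of these rose and 6 fell, where 38.7% of all genes rose and 39.1% fell. Zc3h12a, known as Regnase-1, a ribonuclease that degrades the receptor mRNA among others, fell from 119 ± 2.08 to 29.5 ± 0.573 CPM (log2 change -2.01 ± 0.076 in WT and -2.13 ± 0.076 in CKO). Hif1a, a subunit of the factor that drives the response to low oxygen, rose from 218 ± 3.71 to 617 ± 111 CPM (1.5 ± 0.098). Tax1bp1, an autophagy receptor that works with Ncoa4, fell from 367 ± 9.09 to 206 ± 1.69 CPM (-0.83 ± 0.056). Each of these calls was also made in CKO, in the same direction.

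For iron-sulfur cluster assembly, the mitochondrial list of 19 had 12 genes that rose and 6 that fell in WT, and 11 and 5 in CKO. Over all genes 38.7% rose and 39.1% fell in WT, and 38.5% and 39.2% in CKO, and the lists were not tested against these shares. Hspa9, the mitochondrial chaperone of cluster transfer, rose from 303 ± 7.79 to 1045 ± 7.41 CPM (log2 change 1.79 ± 0.055), Abcb8, a mitochondrial transporter, from 11.5 ± 0.719 to 35.5 ± 3.91 CPM (1.63 ± 0.11), and the glutaredoxin Glrx5 from 16.9 ± 1.72 to 42.0 ± 1.26 CPM (1.32 ± 0.093). In the cytosolic list 6 of 10 rose and 3 fell in both genotypes. There the glutaredoxin Glrx3 rose by 2.03 ± 0.065, Ciao2a by 1.29 ± 0.096 and Ciapin1 by 0.82 ± 0.068 on the log2 scale in WT.

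Of 21 genes of heme synthesis, transport and breakdown, 12 rose in WT and 11 in CKO, against 38.7% and 38.5% of all genes, and 5 and 4 fell, against 39.1% and 39.2%. Neighbouring steps of the synthesis path differed in direction. Cpox, which makes protoporphyrinogen, rose from 16.9 ± 1.34 to 45.4 ± 2.35 CPM (log2 change 1.43 ± 0.087), and Ppox, the enzyme after it, fell from 45.6 ± 1.58 to 20 ± 1.63 CPM (-1.19 ± 0.088). The mitochondrial porphyrin transport gene Tmem14c rose from 27.2 ± 1.58 to 60.6 ± 4.62 CPM (1.16 ± 0.084). In CKO the 3 genes changed by 1.45, -1.23 and 1.06.

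Of 10 genes of export and of the hepcidin pathway, 5 passed the filter, and 2 rose and 2 fell in both genotypes, where 38.7% of all genes rose and 39.1% fell in WT. Smad4, which carries the signal of bone morphogenetic proteins, fell from 149 ± 4.32 to 69.7 ± 1.78 CPM in WT (log2 change -1.10 ± 0.063). Cp, the ferroxidase ceruloplasmin, was faint, at 1.15 ± 0.205 at 0 h and 0.346 ± 0.286 CPM at 48 h (-1.70 ± 0.61). Bmpr1a, a receptor of the same signal, rose from 5.27 ± 1.56 to 16.2 ± 3.87 CPM in WT (1.62 ± 0.20) and from 1.59 ± 0.115 to 11.2 ± 1.82 CPM in CKO (2.81 ± 0.24).

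**Figure D5:**
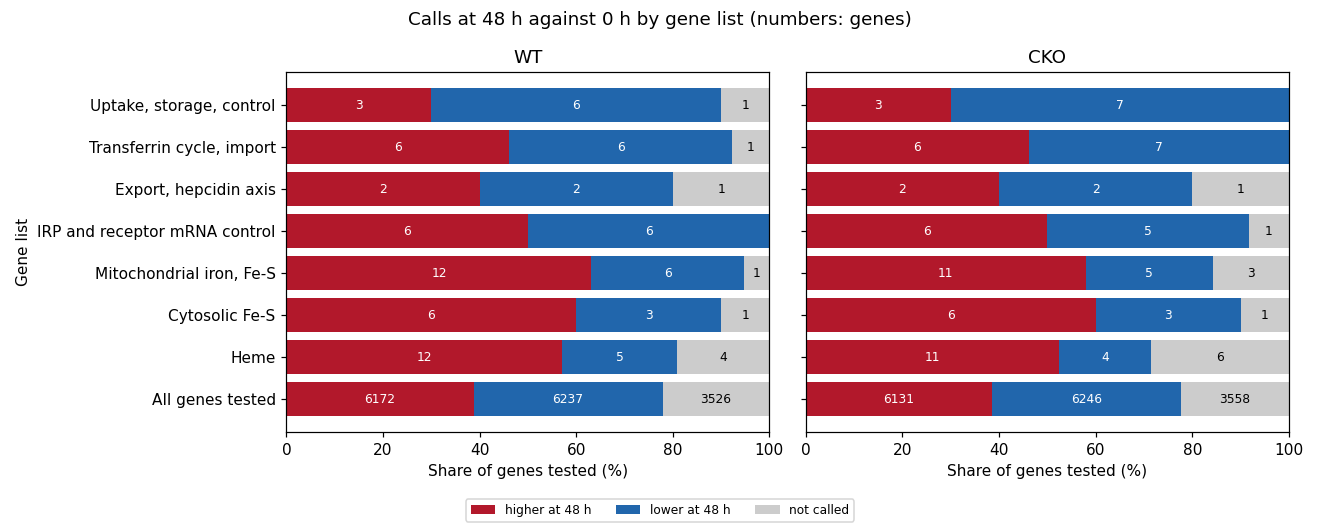
Share of the tested genes of each list that were higher, lower or not called at 48 h against 0 h, in WT and CKO, with the number of genes in each bar. The mitochondrial list has 12 higher and 6 lower in WT and the heme list 12 and 5, beside 6172 higher and 6237 lower among all genes tested.

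Of the 80 genes, 2 were called between the genotypes at 0 h, both lower in CKO, where 7.48% of all genes were called. Bmpr1a was -1.72 ± 0.25 (adjusted p = 0.00021, edgeR), and Epas1, which encodes the hypoxia factor HIF-2α and whose mRNA has an iron-responsive element, was -1.05 ± 0.27 (adjusted p = 0.0204, edgeR) with 4.77 ± 0.273 CPM in WT and 2.3 ± 0.229 CPM in CKO. At 0 h the erythroid and B-cell marker sums were also lower in CKO, and the erythroid gene Slc4a1 was called lower (-2.87 ± 0.75, adjusted p = 0.0295, edgeR). This Slc4a1 call rests on few counts, 10, 21 and 12 in WT and 3, 1 and 1 in CKO. The part of such cells in the calls of Bmpr1a and Epas1, and in that of Steap3, which was higher in CKO, was not tested. Bmpr1a was called under every alternative tried, while Epas1 was not called without any one of WT 0 h replicates 1 and 2 and CKO 0 h replicates 1 and 3. The count of called genes was 4 with no filter on low counts and 7 without both WT libraries numbered 1, and with 1 library left out it ran from 1 to 4: 3 without WT 0 h replicate 1 or WT 48 h replicate 1, 4 without CKO 0 h replicate 2, and 1 without WT 0 h replicate 2 or CKO 0 h replicate 1. At 48 h and for the interaction edgeR called none of the 80, against 4.54% and 1.38% of all genes. At an unadjusted p under 0.05 there were 9 at 48 h and 6 for the interaction, with no share over all genes taken at that limit. DESeq2 called 0 and 2, the latter Bmpr1a and Epas1. For Bmpr1a the interaction was 1.19 ± 0.32 (adjusted p = 0.0787, edgeR), and for Epas1 it was 1.54 ± 0.42 (adjusted p = 0.0807, edgeR). The former passed with the replicate block (adjusted p = 0.0134, edgeR), with no count filter (0.0027), without both WT libraries numbered 1 (0.0371), without WT 0 h replicate 2 (0.0418) or without WT 48 h replicate 1 (0.0161), and the latter without CKO 48 h replicate 2 (0.0364). At 48 h Bmpr1a was called lower in CKO with the block (-0.52, adjusted p = 0.0362, edgeR) and with no count filter (-0.55, 0.025).

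The profiles most like that of Tfrc were those of Rrm1, a subunit of ribonucleotide reductase, Mpp6, Tmpo, a protein of the nuclear envelope, and Nolc1, a protein of the nucleolus. Likeness was Pearson's r of log2 CPM over the 12 libraries among 9501 coding genes, and it was 0.999 for each; Rrm1 went from 44.7 to 685 CPM in WT and from 40.3 to 664 CPM in CKO. With 2 times far apart such values are common, and 987 genes had r over 0.99 with Tfrc. For Fth1 there were 135 such genes, led by Dazap2, Gmfg, Sh3gl1 and Tbc1d10c, and Dazap2 went from 533 to 263 CPM in WT and from 501 to 236 CPM in CKO.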

How the data were processed

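Raw counts per Ensembl gene, deposited by the authors, were used for 12 libraries of spleen CD8+ T cells; per the labels' protocols RNA came from TRIzol and libraries from a TruSeq Stranded mRNA kit. The submitters' processing notes name the build GRCm39, HISAT2 2.2.1, cutadapt and DESeq2, with no roles. How reads were counted, and with which strand setting and annotation, is not given in the sources used here. Near-identical copies and antisense partners may therefore share counts. Symbols were matched by ID for 52073 of 56691 rows. Positions, lengths and hairpins come from GENCODE M21 (GRCm38).

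With TMM scaling, edgeR 4.0.16 fitted the counts (robust quasi-likelihood, 1 mean per group, all 12 libraries, 8 residual degrees of freedom) in R 4.3.3, after filterByExpr. Two-sided p-values were adjusted after Benjamini and Hochberg over 15935 genes. The fit was also run on simulated counts in which few genes changed, and only in WT at 48 h. In the data most genes tested were called between the times, so that run does not cover scaling or error rates under so wide a change. Library totals ran from 15900529 to 22427151; counting intervals and floors cover counting error only. Alternatives were DESeq2 1.42.0, other scalings and filters, a replicate block, only the groups compared, a fold threshold, ferritin copies added, and libraries left out. The members and lists were chosen with earlier results of these data known. Named were all 10 genes, the 3 genes of each list with the smallest p in WT, up to 2 genes per list called between genotypes or in the interaction, and the 4 genes most like Tfrc and Fth1 (mean CPM of at least 5).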

Additional observations from a re-analysis of the deposited data

How the results depend on the processing

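The depth left Steap3 and Slc40a1 with few counts, and 3 libraries a group bound every test. Among the 10 genes no call reversed under any setting; calls were lost for Ftl1 in WT with no count filter (-0.14, edgeR adjusted p = 0.0922) and, as given above, for Ftl1 and Steap3 when 1 library was left out. The cause was not tested. With a log2 change of at least 1, 5 and 4 genes stayed called in WT and CKO, and 36 and 37 of the wider list.

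The wider list had 4 calls at 0 h, 1 at 48 h and 1 for the interaction with no count filter; 7, 1 and 1 without both WT libraries numbered 1; 1 at 48 h and 1 for the interaction with the replicate block; and 2 for the interaction with DESeq2. Leaving out 1 library gave 0 to 1 calls among the 10 genes at 0 h, 1 to 4 in the wider list at 0 h and 0 to 1 for its interaction.

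Differences that passed no test changed sign as follows. Ireb2 at 0 h was 0.015 on library totals, 0.00084 with no filter, 0.00092 with the stricter filter, 0.0036 with the replicate block and 0.0085 with only the groups compared, and Slc40a1 at 0 h was -0.017 with the block. Without both WT libraries numbered 1, Steap3 in WT was 0.12, Ncoa4 at 48 h -0.018, and the interactions of Fth1, Aco1 and Ncoa4 0.0075, 0.097 and -0.070. With 1 library left out, the ranges were -0.032 to 0.083 for Ftl1, -0.083 to 0.093 for Ireb2, -0.022 to 0.039 for Ncoa4 and -0.15 to 0.63 for Slc40a1 at 0 h; -0.018 to 0.096 for Ncoa4, -0.16 to 0.088 for Slc11a2 and -0.097 to 0.017 for Tfrc at 48 h; -0.31 to 0.060 for Steap3 in WT; and -0.13 to 0.11 for Aco1, -0.13 to 0.0028 for Fth1, -0.034 to 0.080 for Ncoa4 and -0.19 to 2.14 for Slc40a1 in the interaction.

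No label says that the replicate numbers pair the libraries, and in no pair of groups did every correlation of deviations exceed 0.1 (-0.01 to 0.16), so the numbers were not treated as pairs. As a hint from the data, a library was most like its own number in 22 of 36 cases, where numbers that carry nothing would give 12. Within a genotype it was so in 12 of 12 cases (correlations 0.042 to 0.16), where the share expected is the same, 12 in 36. The 22 cases include these 12, so the hint is stronger within a genotype than across genotypes. With the replicate block 12420, 12388, 1313, 848 and 281 genes were called in the 5 comparisons, against 12409, 12377, 1192, 724 and 220, and the number called among the 10 genes did not change.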
